A study of Mus musculus with 6 samples.

Results

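The proteins of the mitochondrial ribosome, the particle that translates the messages of mitochondrial DNA, were followed at the RNA level in infarcted mouse hearts after mild cold. The set holds every protein-coding gene of the deposited count table with a mouse symbol Mrpl or Mrps and a number, which gave 78 of 55401 gene IDs, 49 named for the large subunit (Mrpl) and 29 for the small subunit (Mrps). Pseudogenes were left out. A gene entered the set by its name and not by a measured value, but the set was chosen with earlier results of these data known. The edgeR expression filter kept 77 of them among 16757 genes tested. Mrpl53 had 0 counts in all 6 libraries and was left out; in the annotation, 88.0% of its exon bases are shared with Gm42688.

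RNA was sequenced from hearts of mice with myocardial infarction, the loss of heart muscle after a coronary artery is blocked. Mild cold meant 16 °C for 7 days (3 libraries), and the comparison group stayed at a room temperature of 22 °C (3 libraries). Both groups had the infarct, so no healthy heart enters the comparison, and the sources used here do not give strain, sex, age or time after infarction. The replicates are numbered but are not said to be separate animals, and the spread between libraries, on which every p-value here rests, may be technical.

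Library totals ran from 42139438 to 65285901 counts in mild cold and from 41619023 to 63946671 counts at room temperature, and a tested Mrpl or Mrps gene had between 283 and 14277 counts in a library. The tissue label is whole heart, yet the atrial transcript Myl7 had 6, 0 and 6 counts in mild cold 1 to 3, against 28312, 18 and 0 counts in room temperature 1 to 3. Room temperature 1 also stood apart in Ucp1, a brown fat gene, with 8688 counts, where no other library had more than 2. Room temperature 3 stood apart in Myh4, a myosin of fast skeletal muscle, which had 0, 2 and 2 counts in mild cold 1 to 3, against 16, 2 and 1638 counts in room temperature 1 to 3. Over 6 skeletal muscle markers, mean log2(CPM + 1) relative to each gene's own mean was -0.56, -0.53 and -0.49 in mild cold, against -0.31, -0.38 and 2.28 at room temperature. The main results are therefore also given without each of these 2 room temperature libraries. Summed markers of cardiomyocytes were at 37214 to 43126 CPM in mild cold, against 25365 to 36373 CPM at room temperature, with 10 of 10 genes higher. Summed fibroblast markers were at 2128 to 3531 CPM in mild cold, against 3565 to 5690 CPM at room temperature, with 10 of 10 genes lower. No marker of either list was at 0. Macrophage and leukocyte markers summed to 561.6 to 734.4 CPM in mild cold, against 600.9 to 1023 CPM at room temperature (10 of 10 lower), and endothelial markers to 1117 to 1330.2 CPM in mild cold, against 797 to 1151 CPM at room temperature (8 of 8 higher), both with overlap. Adipocyte markers summed to 19.3 to 121 CPM in mild cold, against 122 to 1295 CPM at room temperature. Hepatocyte markers summed to 186.06, 5.23 and 268.9 CPM in mild cold 1 to 3, against 9.96, 32.9 and 0.857 CPM in room temperature 1 to 3. Mild cold 1 and mild cold 3 thus stood apart in these markers. In bulk RNA, a different number of cells of a type and a different amount of RNA per cell cannot be told apart, and the part of these cell types in the results on the mitochondrial ribosome was not tested.

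The mitochondrial ribosome makes the few proteins that mitochondrial DNA encodes, all of them subunits of the respiratory chain or of ATP synthase. Its ribosomal RNA comes from mitochondrial DNA, while every one of its proteins is encoded in the nucleus, made in the cytosol and imported. The small subunit reads the message and the large subunit forms the peptide bond. Heart muscle is rich in mitochondria, and in people inherited defects of several of these proteins, among them MRPL3, MRPL44 and MRPS22, cause cardiomyopathy.

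As a set, the mitochondrial ribosomal protein genes were higher in mild cold by a modest and even margin. Their levels, in counts relative to the library total after scaling by the TMM method of edgeR (TMM-scaled CPM), summed to 3271, 3200 and 2976 CPM in mild cold 1 to 3, against 2198, 2624 and 2258 CPM in room temperature 1 to 3. Every mild cold library thus lay above every room temperature library. The means were 3149 ± 154 CPM in mild cold, against 2359.6 ± 230.5 CPM at room temperature (SD, n = 3 each), a ratio of 1.34. Of the 77 genes, 76 had a log2 fold change (mild cold over room temperature) above 0, against 47.7% of all genes tested. Their median log2 fold change was 0.41, which is 1.33-fold, while the median of all genes tested was -0.02. The fold changes were narrow in range. They were at least 0.5 for 20 genes, between 0.3 and 0.5 for 43 genes and between 0 and 0.3 for 13 genes, and 1 gene, Mrps6, was below 0.

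None of the 77 passed edgeR's quasi-likelihood test at an adjusted p of 0.05 (Benjamini-Hochberg over all 16757 genes), and neither did any other gene, 0% of those tested. The smallest edgeR adjusted p was 0.0878 among these genes and 0.0813 among all genes. At an edgeR adjusted p under 0.1, 17 of the 77 were higher and 0 were lower, against backgrounds of 1.01% and 1.35% of all genes. At an unadjusted p under 0.05, 63 were higher and 0 lower, against 9.11% and 10.6% of all genes. The groups did not overlap for 63 genes, 81.8% of the 77, all with mild cold above, while 12% of all genes were that way round and 13.1% the other. The DESeq2 Wald test, run on the same 16757 genes, put 42 of the 77 past an adjusted p of 0.05, all higher and 0 lower, against 3.91% higher and 4.53% lower among all genes. Genes that vary together between libraries are not independent, so these counts describe the set and are not a test of it. Scaling by library totals only moved the median of all genes to -0.27, and left 65 of the 77 genes higher, against 20.1% of all genes, and 12 lower, with a median of 0.16, which is 0.44 relative to all genes, against 0.43 with TMM. With that scaling 16 were higher at an unadjusted p under 0.05 and 30 did not overlap, against 2.3% and 2.77% of all genes. The log2 fold changes of 11 genes turned negative there: Mrpl17, Mrpl20, Mrpl24, Mrpl27, Mrpl33, Mrpl54, Mrps10, Mrps17, Mrps18b, Mrps18c and Mrps27. Without room temperature 1, the median log2 fold change was 0.35, 55 genes had an unadjusted p under 0.05 and 64 did not overlap, against 6.8% and 15.8% of all genes. Without room temperature 3 these were 0.38, 50 and 63, against 6.2% and 15.8% of all genes. In both cases only 2 room temperature libraries had to be cleared.

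**Figure D1:**
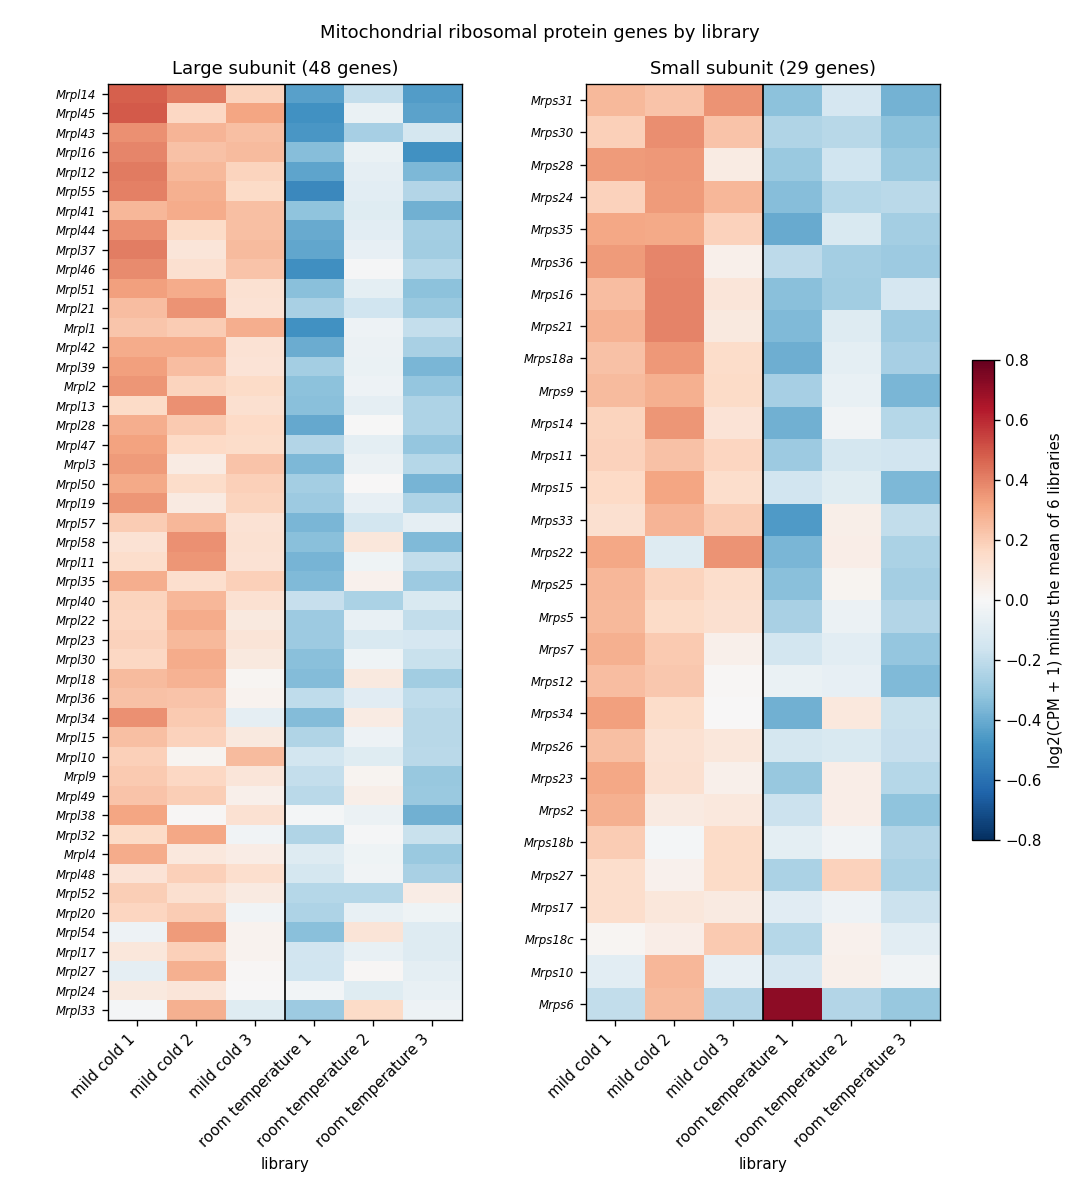
Colour gives log2(CPM + 1) of each gene in each library minus its mean over the 6 libraries, for the 48 large subunit genes (left) and 29 small subunit genes (right), sorted by fold change with mild cold left of the black line. Most rows are red in mild cold and blue in room temperature 1 and room temperature 3. Room temperature 2 is the palest of its group, with some cells on the red side, and Mrps6 is red in room temperature 1.

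The libraries of a group did not all sit at the same level, as the colour map of genes by library shows. Averaged over the 77 genes, log2(CPM + 1) relative to each gene's own mean was 0.23, 0.22 and 0.12 in mild cold 1 to 3, against -0.27, -0.06 and -0.24 in room temperature 1 to 3. Room temperature 2 was the closest to mild cold, and it was the highest room temperature library for 65 of the 77 genes. Mild cold 3 was the lowest mild cold library for 51 of them. Room temperature 2 was also the highest of its group in summed cardiomyocyte markers, with 36373 CPM beside 25365 and 25697 CPM in room temperature 1 and 3. Without room temperature 2, the median log2 fold change was 0.52, 66 genes had an unadjusted p under 0.05 and 74 did not overlap, against 11.1% and 19.9% of all genes, again with only 2 room temperature libraries to clear. The median coefficient of variation between libraries was 7.89% in mild cold and 11.1% at room temperature.

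Both subunits were higher, with similar medians. Of all genes tested, 9.11% were higher at an unadjusted p under 0.05 in edgeR. Mild cold lay above without overlap for 12%, and 3.91% were higher past DESeq2's threshold. For the large subunit, 48 of 48 tested genes had a log2 fold change above 0, with a median of 0.41 (1.33-fold), 40 at an unadjusted p under 0.05, 41 without overlap and 27 past DESeq2's threshold. For the small subunit it was 28 of 29, with a median of 0.40 (1.32-fold), 23 at an unadjusted p under 0.05, 22 without overlap and 15 past DESeq2's threshold. The medians differed by 0.01. Large subunit genes summed to 2239.6, 2165.5 and 2027 CPM in mild cold 1 to 3, against 1474, 1789.8 and 1534 CPM in room temperature 1 to 3. Dividing this by the small subunit's sum gave 2.17, 2.09 and 2.14 in mild cold, against 2.04, 2.15 and 2.12 at room temperature. These ratios overlapped between the groups, with means of 2.13 ± 0.0396 in mild cold and 2.10 ± 0.0575 at room temperature (SD, n = 3 each). Leaving out room temperature 1 turned the difference of the medians to -0.0063.

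**Figure D2:**
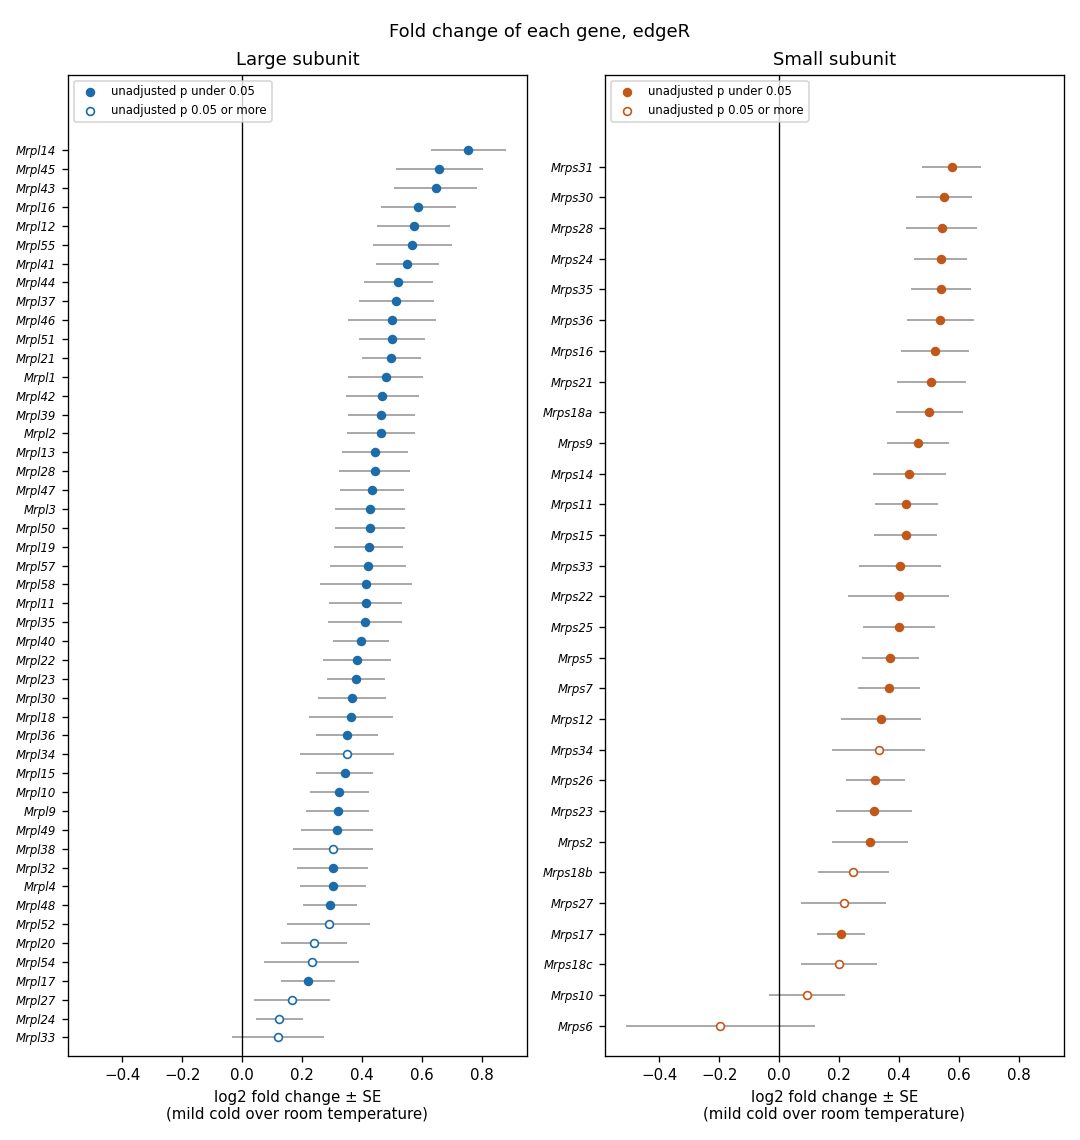
Each point is the edgeR log2 fold change of 1 gene (mild cold over room temperature) with its SE, for the large subunit (left) and the small subunit (right). Filled points have an unadjusted p under 0.05, and with TMM scaling all points but that of Mrps6 lie right of 0, where library totals only put 12 below it.

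The names of the genes do not fully follow the structure of the ribosome. In solved structures the products of Mrps18a and Mrps30 sit in the large subunit, and the product of Mrps36 is a component of the 2-oxoglutarate dehydrogenase complex of the citric acid cycle. With those 2 genes moved and Mrps36 left out, the medians were 0.42 for the large subunit and 0.38 for the small subunit, a difference of 0.03. The genes were also split by protein name, as the nomenclature of ribosomal proteins marks them. Those named for a bacterial counterpart (46 genes tested) had a median log2 fold change of 0.38, and those named as particular to mitochondria (30 genes tested) one of 0.42. Mrps18a and Mrps18b were put with the second class, although they are related to the same bacterial protein as Mrps18c, and Mrps36 was left out. That split was chosen after the data were seen.

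**Figure D3:**
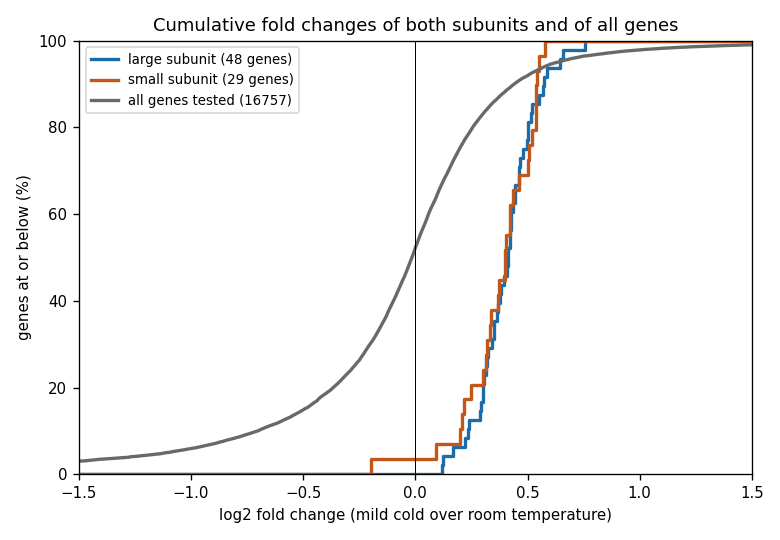
Share of genes (%) at or below each log2 fold change (mild cold over room temperature) for the large subunit, the small subunit and all genes tested. Both subunit curves run close together and stay right of the curve of all genes over most of their length, until the upper tail of all genes reaches further.

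The promoters of these genes were searched for letters that 4 transcription factors or factor families are known to bind, since genes for mitochondrial proteins are known targets of NRF1 and of ETS factors such as GABP. A RefSeq promoter of 300 bases (250 before to 50 after the gene's start, mouse build GRCm38.p6) was at hand for 69 of the 78 genes, and both strands were searched. The NRF1 letters GCGCANGCG, in which N is any base, were in 16 of 69 (23.2%), against 13.5% of 11865 tested genes with a promoter and 7.03% of all genes with one. They were in 12 of 43 large subunit promoters and in 4 of 26 small subunit promoters. The ETS letters CCGGAAG were in 26 of 69 (37.7%), against 17.9% and 9.93%. The YY1 letters AAGATGGCG were in 8 of 69 (11.6%), against 3.11% and 1.64%, and the ZNF143 letters ACTACAATT in 0 of 69, against 0.750% and 0.448%. At least 1 of the first 3 was in 42 of 69 (60.9%), against 30.3% of tested genes, and no match of a factor overlapped that of another. Such a match is a description of letters and not a binding site.

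Sites of the NRF1 letters from members of both subunits are printed to show how alike they are beyond the core. They are a part of those found, from members with log2 fold changes from 0.66 (Mrpl45) to 0.30 (Mrpl32). Members with lower fold changes, such as Mrpl17 (0.22) and Mrps18b (0.25), also hold the letters and are not printed here. Each printed site runs 5′ to 3′ in the direction of the gene, lies before its start, and has the match in capitals.
Mrpl12, chr11:120484547-120484575: attgtctccgCGCCTGCGCgtcgcaccgc
Mrpl44, chr1:79775973-79776001: agaagcacttGCGCACGCGcagtacacta
Mrpl45, chr11:97315586-97315614: gaagcctcctGCGCAGGCGcagctggctc
Mrpl45, chr11:97315668-97315696: tggtttcattGCGCACGCGcgaacccact
Mrpl32, chr13:14613106-14613134: tttgacccttGCGCATGCGcaagaggggc
Mrps21, chr3:95871586-95871614: gaaagtccagCGCCTGCGCtcagcaccga
The genes Mrpl12, Mrpl44 and Mrpl45 lie on the plus strand, and Mrpl32 and Mrps21 on the minus strand. In Mrpl12 and Mrps21 the match reads on the strand opposite to the gene.

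Sites of the ETS letters are shown in the same way, for members with log2 fold changes from 0.65 (Mrpl43) to 0.21 (Mrps27).
Mrpl43, chr19:45006482-45006508: cgcggtgactCCGGAAGcaaaactctc
Mrpl3, chr9:105053239-105053265: gagaaacggaCCGGAAGtggcccggct
Mrps16, chr14:20393548-20393574: tgggggcgctCTTCCGGgcttcaggct
Mrps18a, chr17:46110968-46110994: cacccctgctCCGGAAGcggaagtgca
Mrps22, chr9:98601680-98601700: acctctcgagCCGGAAGttgc
Mrpl17, chr7:105811308-105811334: catgctccgcCCGGAAGgcgcctcctc
Mrps27, chr13:99344728-99344754: ggtaggaccaCTTCCGGcggaggcggg
The genes Mrpl3, Mrps18a and Mrps27 lie on the plus strand, and Mrpl17, Mrpl43, Mrps16 and Mrps22 on the minus strand, with the Mrps16 and Mrps27 matches on the opposite strand to the gene. Median log2 fold changes were 0.40 with and 0.41 without the NRF1 letters, 0.36 with and 0.43 without the ETS letters, and 0.45 with and 0.40 without the YY1 letters.

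Among large subunit genes, Mrpl14 had the largest log2 fold change. Its product lies at the face that meets the small subunit. It was at 26.4, 25.2 and 21.3 CPM in mild cold 1 to 3, against 13.6, 16.2 and 13.5 CPM in room temperature 1 to 3. All mild cold libraries were above all room temperature libraries, with a log2 fold change of 0.75 (SE 0.126, edgeR adjusted p = 0.0878, DESeq2 adjusted p = 9.93e-05). Mrpl16, whose bacterial counterpart helps to position transfer RNA at the peptidyl transferase centre, was at 72.3, 65.0 and 65.9 CPM in mild cold, against 43.2, 53.0 and 39.1 CPM at room temperature. It did not overlap either, with a log2 fold change of 0.59 (SE 0.125, edgeR adjusted p = 0.0998). Mrpl21, another protein with a bacterial counterpart, was at 33.7, 36.5 and 30.6 CPM in mild cold, against 23.4, 25.2 and 22.8 CPM at room temperature (a log2 fold change of 0.50, edgeR adjusted p = 0.0944).

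The stalk of the large subunit recruits the translation factors. Mrpl12, its flexible part, also reported in human cells to bind the mitochondrial RNA polymerase, was at 101, 90.3 and 85.2 CPM in mild cold, against 56.0, 71.5 and 58.4 CPM at room temperature. The groups did not overlap, and the log2 fold change was 0.57 (SE 0.122, edgeR adjusted p = 0.0998). Mrpl11, at the base of the stalk, was at 34.9, 40.6 and 34.3 CPM in mild cold, against 24.2, 30.9 and 27.5 CPM at room temperature, again without overlap (0.41, SE 0.121, edgeR adjusted p = 0.150). Mrpl10, which anchors the stalk, was at 28.5, 25.2 and 29.8 CPM in mild cold, against 22.3, 23.1 and 21.2 CPM at room temperature (a log2 fold change of 0.32).

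Several large subunit proteins line the tunnel exit, where the new chain leaves towards the inner membrane. Mrpl45, which holds the ribosome near that membrane, was at 62.3, 49.7 and 55.2 CPM in mild cold, against 31.2, 42.4 and 32.5 CPM at room temperature. Its groups did not overlap, with a log2 fold change of 0.66 (SE 0.145), the second largest of the large subunit. Of the other exit proteins, those picked here were lower in fold change, at 0.43 for Mrpl47, 0.38 for Mrpl22, 0.38 for Mrpl23 and 0.12 for Mrpl24. The exit was not covered in full. Mrpl24 was at 39.5, 39.9 and 37.4 CPM in mild cold, against 36.7, 34.8 and 35.8 CPM at room temperature, so the groups did not overlap, but its edgeR adjusted p was 0.425. With library totals only its log2 fold change was -0.13, and 26.3% of its exon bases are shared with other genes. These 5 and Mrpl10 were singled out after their values were seen.

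Of the proteins with no bacterial counterpart, Mrpl41, also described in human cells as a growth suppressor, was at 31.1, 31.8 and 30.5 CPM in mild cold, against 20.4, 24.0 and 19.4 CPM at room temperature (a log2 fold change of 0.55, SE 0.104, edgeR adjusted p = 0.0944). Mrpl43 was at 11.5, 10.7 and 10.5 CPM in mild cold, against 6.02, 7.07 and 7.79 CPM at room temperature (0.65, SE 0.139, edgeR adjusted p = 0.0998), although 33.4% of its exon bases also belong to another gene. Neither overlapped between the groups. Mrpl44, which carries a fold related to ribonuclease III, was at 41.5, 35.6 and 37.98 CPM in mild cold, against 23.8, 30.05 and 26.3 CPM at room temperature (0.52, SE 0.114, edgeR adjusted p = 0.09995). Mrpl58, a peptidyl-tRNA hydrolase that can free stalled chains, was at 21.5, 25.8 and 21.7 CPM in mild cold, against 15.5, 21.1 and 15.3 CPM at room temperature. Room temperature 2 came within 1 CPM of mild cold 1, and the edgeR adjusted p was 0.209 (log2 fold change 0.41).

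Mrpl3, a core protein near the peptidyl transferase centre, was at 102, 84.4 and 94.3 CPM in mild cold, against 62.6, 77.8 and 68.7 CPM at room temperature, without overlap (log2 fold change 0.43, edgeR adjusted p = 0.136). Mrpl32, which the m-AAA protease of the inner membrane must cut before it can join the ribosome, was at 31.0, 34.6 and 27.2 CPM in mild cold, against 23.4, 27.6 and 24.4 CPM at room temperature. There mild cold 3 fell just under room temperature 2, and the groups overlapped (0.30, edgeR adjusted p = 0.225). The smallest fold change of the large subunit was that of Mrpl33, at 25.6, 31.8 and 24.2 CPM in mild cold, against 21.0, 28.97 and 25.2 CPM at room temperature (0.12, SE 0.154, edgeR adjusted p = 0.717). Libraries of both groups were mixed in order, and without mild cold 2 its log2 fold change was -0.01.

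In the small subunit, Mrps24, the counterpart of a bacterial protein at the entry of the messenger RNA channel, had the smallest p of all 77 genes. It was at 34.2, 38.2 and 36.2 CPM in mild cold 1 to 3, against 23.5, 25.5 and 25.7 CPM in room temperature 1 to 3. A gap of more than 8 CPM separated the groups, with a log2 fold change of 0.54 (SE 0.0886, edgeR adjusted p = 0.0878, DESeq2 adjusted p = 7.88e-05). Mrps12, at the decoding centre, was at 14.8, 14.6 and 12.5 CPM in mild cold, against 11.9, 11.8 and 9.45 CPM at room temperature (0.34, edgeR adjusted p = 0.228). The groups lay close but apart. Mrps7, which starts the assembly of the head in bacteria, was at 51.7, 49.1 and 43.6 CPM in mild cold, against 38.1, 39.9 and 34.02 CPM at room temperature (0.37, edgeR adjusted p = 0.141).

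Other small subunit proteins with bacterial counterparts gave similar values. Mrps5, whose bacterial counterpart affects the accuracy of decoding, was at 39.1, 36.4 and 35.7 CPM in mild cold, against 27.1, 31.4 and 27.6 CPM at room temperature (a log2 fold change of 0.37). Mrps14 was at 36.5, 41.2 and 34.6 CPM in mild cold, against 24.4, 31.5 and 27.3 CPM at room temperature (0.43). Mrps16, whose loss in people causes a defect of several respiratory complexes, was at 25.2, 28.0 and 22.6 CPM in mild cold, against 16.5, 17.2 and 19.1 CPM at room temperature (0.52, SE 0.113, edgeR adjusted p = 0.0998). None of these 3 overlapped between the groups.

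Among small subunit proteins particular to mitochondria, Mrps31 was at 40.0, 39.3 and 43.0 CPM in mild cold, against 26.4, 30.3 and 25.4 CPM at room temperature (a log2 fold change of 0.58, SE 0.0985, edgeR adjusted p = 0.0878). Mrps35 was at 53.8, 53.5 and 49.3 CPM in mild cold, against 32.5, 39.7 and 35.6 CPM at room temperature (0.54, SE 0.0994, edgeR adjusted p = 0.0944). Both had their 3 mild cold libraries clear of the rest. Mrps22 overlapped, with 23.0, 17.1 and 23.8 CPM in mild cold, against 14.1, 19.1 and 15.3 CPM at room temperature (0.40, SE 0.169, edgeR adjusted p = 0.249). Mrps27, a pentatricopeptide repeat protein, overlapped too, at 22.6, 20.9 and 22.8 CPM in mild cold, against 16.9, 23.3 and 16.9 CPM at room temperature (0.21, edgeR adjusted p = 0.450), and 24.2% of its exon bases are shared with other genes. In both of these genes room temperature 2 was above mild cold 2. Mrps34, needed for a stable small subunit in mice, was at 21.4, 18.8 and 16.9 CPM in mild cold, against 12.7, 18.0 and 14.8 CPM at room temperature (0.33, edgeR adjusted p = 0.286), and 77.8% of its exon bases are shared with other genes.

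The 3 relatives of a single bacterial protein, Mrps18a, Mrps18b and Mrps18c, occupy different places in the ribosome. Mrps18a was at 36.5, 39.5 and 34.2 CPM in mild cold, against 23.3, 29.2 and 25.5 CPM at room temperature (a log2 fold change of 0.50, edgeR adjusted p = 0.103). Mrps18b was at 13.3, 11.3 and 12.9 CPM in mild cold, against 10.8, 11.2 and 9.59 CPM at room temperature (0.25, edgeR adjusted p = 0.301). Mrps18c was at 10.7, 10.99 and 12.4 CPM in mild cold, against 8.87, 10.9 and 9.89 CPM at room temperature (0.20, edgeR adjusted p = 0.423). Other genes share 30.5% of the exon bases of Mrps18b and 23.2% of those of Mrps18c. Mrps18a and Mrps18b did not overlap, Mrps18b by a margin of under 0.1 CPM, and Mrps18c did. Whether their fold changes differed from each other was not tested.

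Mrps30 and Mrps36, named for the small subunit but placed outside it by the structures, were among the genes with the smallest p. Mrps30 was at 25.9, 29.4 and 26.6 CPM in mild cold, against 19.0, 19.2 and 17.8 CPM at room temperature (a log2 fold change of 0.55, SE 0.0932, edgeR adjusted p = 0.0878). Mrps36, the 2-oxoglutarate dehydrogenase subunit, was at 48.1, 49.7 and 38.8 CPM in mild cold, against 32.5, 31.0 and 30.7 CPM at room temperature (0.54, SE 0.112, edgeR adjusted p = 0.0976). Neither overlapped between the groups.

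Mrps6, the counterpart of a bacterial protein that pairs with the protein of the Mrps18 family, was the 1 gene with a negative log2 fold change, -0.20 (SE 0.315, edgeR adjusted p = 0.773). It was at 8.79, 12.4 and 8.55 CPM in mild cold, against 17.4, 8.53 and 8.10 CPM at room temperature. Room temperature 1 alone was high, and without it the log2 fold change was 0.25. In the annotation, 19.9% of its exon bases are shared with other genes. Mrps10 came next from below, at 18.2, 23.5 and 18.5 CPM in mild cold, against 17.5, 19.98 and 19.0 CPM at room temperature (0.09, SE 0.127, edgeR adjusted p = 0.735).

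Levels can be compared between genes only per length, here as mean CPM over the 6 libraries per kilobase of exon. They ran from 3.11 to 52.1 CPM per kb in the large subunit, with a median of 14.3, and from 2.41 to 101 CPM per kb in the small subunit, with a median of 8.50. The highest and lowest of all 77 were thus 42.1-fold apart, although an exon length that counts unused exons lowers a gene's value. The highest of the large subunit were Mrpl42 (52.1), Mrpl12 (50.3) and Mrpl34 (42.7 CPM per kb), and the lowest Mrpl57 (3.70), Mrpl33 (3.57) and Mrpl17 (3.11 CPM per kb). In the small subunit they were Mrps21 (101), Mrps23 (66.1) and Mrps36 (30.2 CPM per kb), and at the low end Mrps30 (3.45), Mrps26 (3.21) and Mrps10 (2.41 CPM per kb).

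Among the most and the least abundant members per length, most had every mild cold library above every room temperature library. Mrpl42 was at 232, 232 and 204 CPM in mild cold, against 143, 183 and 157 CPM at room temperature (a log2 fold change of 0.47, edgeR adjusted p = 0.127). Mrps21 was at 89.3, 97.1 and 77.5 CPM in mild cold, against 57.4, 68.3 and 60.0 CPM at room temperature (0.51, edgeR adjusted p = 0.107). Mrps26 was at 16.6, 15.2 and 14.9 CPM in mild cold, against 12.5, 12.7 and 12.1 CPM at room temperature (0.32, edgeR adjusted p = 0.154). None of these 3 overlapped. Mrps23 and Mrpl34 did, at fold changes of 0.32 and 0.35 on the log2 scale, while Mrpl57 at 0.42 and Mrpl17 at 0.22 did not. The low Mrpl33 and Mrps10 overlapped, as described above.

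Ribosomal proteins of mitochondria that carry other symbols were higher in 5 of 5 cases, with a median log2 fold change of 0.38. With library totals only 4 were higher, against 20.1% of all genes. Chchd1, a small subunit protein, was at 49.4, 59.0 and 49.5 CPM in mild cold, against 32.8, 40.3 and 36.7 CPM at room temperature (0.52, edgeR adjusted p = 0.09995). Gadd45gip1, a large subunit protein, was low, at 3.20, 3.75 and 2.80 CPM in mild cold, against 2.02, 2.20 and 1.999 CPM at room temperature (0.65, edgeR adjusted p = 0.177), and 42.0% of its exon bases are shared with other genes. Dap3, a GTP-binding protein of the small subunit, had a log2 fold change of 0.24, Aurkaip1 of 0.25 and Ptcd3, another pentatricopeptide repeat protein, of 0.38. The ribosomal RNAs overlapped between groups. The small one, mt-Rnr1, was at 2837, 3721 and 2885 CPM in mild cold, against 2395, 3096 and 2410 CPM at room temperature, and the large one, mt-Rnr2, had a log2 fold change of 0.28 (SE 0.253, edgeR adjusted p = 0.591). These RNAs were counted after enrichment for mRNA, so their share of the ribosome is not measured here.

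Genes around the mitochondrial ribosome were also counted, by lists written down for the purpose. The shares over all genes tested were 47.7% higher and 9.11% higher at an unadjusted p under 0.05 in edgeR. Of 12 translation factors tested, 12 were higher, 7 at an unadjusted p under 0.05, with a median log2 fold change of 0.36. Mrrf, which recycles the ribosome, was at 32.3 ± 2.05 CPM in mild cold, against 24.2 ± 2.64 CPM at room temperature (SD, n = 3 each). Tsfm, an elongation factor, was at 23.7 ± 2.57 CPM in mild cold, against 17.4 ± 2.33 CPM at room temperature. Of 20 aminoacyl-tRNA synthetases, 20 were higher, 8 at an unadjusted p under 0.05, with a median of 0.25. Fars2, which charges the phenylalanine tRNA, had a log2 fold change of 0.57 (SE 0.105, edgeR adjusted p = 0.0944). Of 29 assembly and rRNA modification genes, 28 were higher and 10 had an unadjusted p under 0.05, with a median of 0.29. Nsun4, an rRNA methyltransferase, had a log2 fold change of 0.50 and Ddx28, an RNA helicase, one of 0.56. Of 9 genes for transcription and upkeep of mitochondrial DNA, 8 were higher and 4 had an unadjusted p under 0.05, with a median of 0.28, and Tfam, which packs that DNA, had a log2 fold change of 0.34 (edgeR adjusted p = 0.143). None of the genes on these 4 lists passed an edgeR adjusted p of 0.05. DESeq2 put 3, 3, 4 and 1 past its threshold, all higher, against 3.91% of all genes. With library totals only, 8, 10, 17 and 5 of them were higher, against 20.1% of all genes. Relative to the median of all genes, the medians of the 4 lists were then 0.39, 0.28, 0.31 and 0.31. With TMM these were 0.38, 0.27, 0.31 and 0.29.

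The messages that this ribosome translates were higher as well. Of 13 mitochondrially encoded mRNAs, 13 had a log2 fold change above 0, with a median of 0.61. An unadjusted p under 0.05 was reached by 8 and 11 did not overlap, against 9.11% and 12% of all genes. With library totals only 12 were higher, against 20.1% of all genes. The mt-Co2 message, for a core protein of cytochrome c oxidase, was at 157, 230.3 and 153 CPM in mild cold, against 97.4, 126 and 111 CPM at room temperature (0.69, SE 0.183, edgeR adjusted p = 0.128). Mild cold 2 was the highest library there. This level lay far below that of mt-Co1, at 157790, 194970 and 157120 CPM in mild cold, against 95965, 130860 and 94974 CPM at room temperature. In counts, mt-Co3 and mt-Atp6 were about as low as mt-Co2. Whether these counts give the true levels of the messages was not tested. The cause of this gap was not tested, and a sum over the 13 messages rests mainly on the abundant ones. Summed over genes, the mitochondrial ribosomal proteins made 0.928%, 0.700% and 0.838% of the mitochondrially encoded mRNA in mild cold 1 to 3, against 0.990%, 0.864% and 0.994% in room temperature 1 to 3, so the ranges overlapped.

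**Figure D4:**
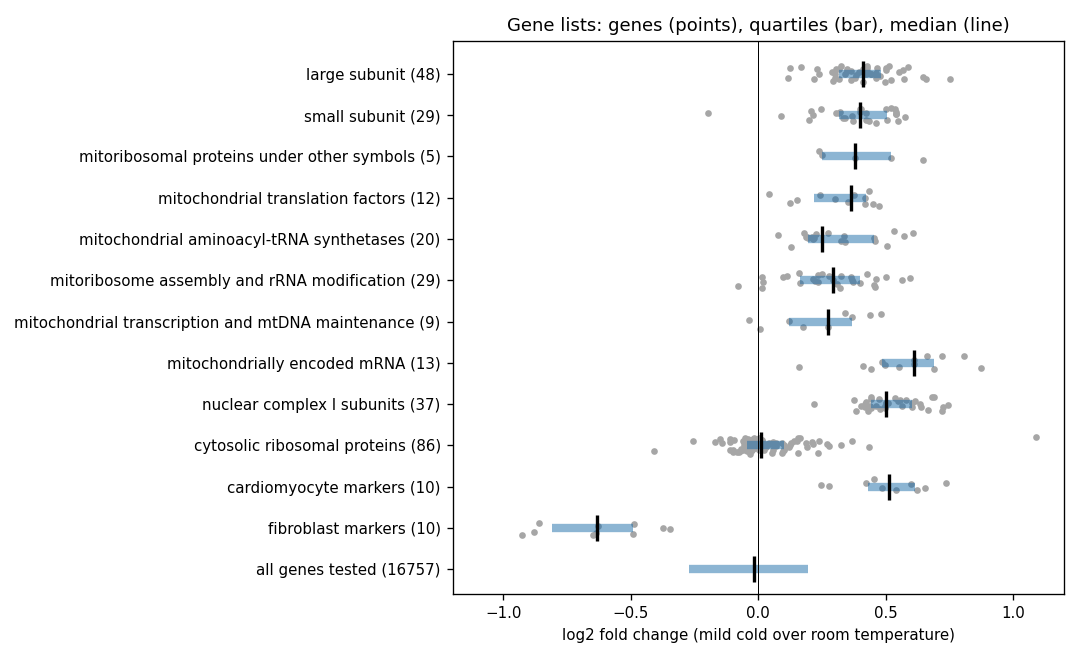
Log2 fold changes (mild cold over room temperature) of the genes of each list (points), with the quartiles (bar) and the median (black line), and the number tested in brackets. Both subunits lie near 0.4, close to the other mitochondrial lists, while cytosolic ribosomal proteins lie near 0 and fibroblast markers below 0.

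The ribosomal proteins of the cytosol gave a contrast. Of 86 tested, 48 were higher and 38 lower, with a median log2 fold change of 0.01. An unadjusted p under 0.05 was reached by 1 and 3 did not overlap, against 9.11% and 12% of all genes. With library totals only 5 were higher and 81 lower, where 20.1% of all genes were higher. The 1 gene was Rpl3l, a relative of Rpl3 made in striated muscle, singled out after its value was seen, at 2.13-fold (edgeR adjusted p = 0.0998). The list was drawn up by symbol and also took in Rps19bp1, a partner of Rps19, and Rpl9-ps6 and Rps12-ps3, and without these it had 47 of 83 higher and a median of 0.02. Expressed as a percentage of their sum, the mitochondrial set was 24.4%, 17.7% and 20.6% in mild cold, against 16.4%, 17.0% and 13.5% at room temperature. Mild cold was above in every library, by less than 1 percentage point between mild cold 2 and room temperature 2. Nuclear subunits of complex I, the entry of electrons from NADH into the respiratory chain, had 37 of 37 higher (36 with library totals only) and a median of 0.50. That list was also drawn up by symbol and took in Ndufa4, now assigned to cytochrome c oxidase, and its relative Ndufa4l2, and without both it had 35 of 35 higher and a median of 0.50. As a percentage of their sum, the mitochondrial ribosomal proteins were at 39.7%, 37.9% and 38.5% in mild cold, against 40.4%, 41.0% and 43.3% at room temperature, with mild cold below in every library, also without those 2 genes.

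Set against the cardiomyocyte markers, the mitochondrial ribosomal proteins did not separate the groups. Their sum was 7.58%, 8.60% and 7.18% of the cardiomyocyte marker sum in mild cold 1 to 3, against 8.66%, 7.21% and 8.79% in room temperature 1 to 3. The groups overlapped, with means of 7.79 ± 0.732% in mild cold and 8.22 ± 0.875% at room temperature (SD, n = 3 each). The 10 markers had a median log2 fold change of 0.51, against 0.41 for the mitochondrial ribosomal proteins. The markers' sum had a ratio of 1.39 and that of the mitochondrial ribosomal proteins one of 1.34.

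**Figure D5:**
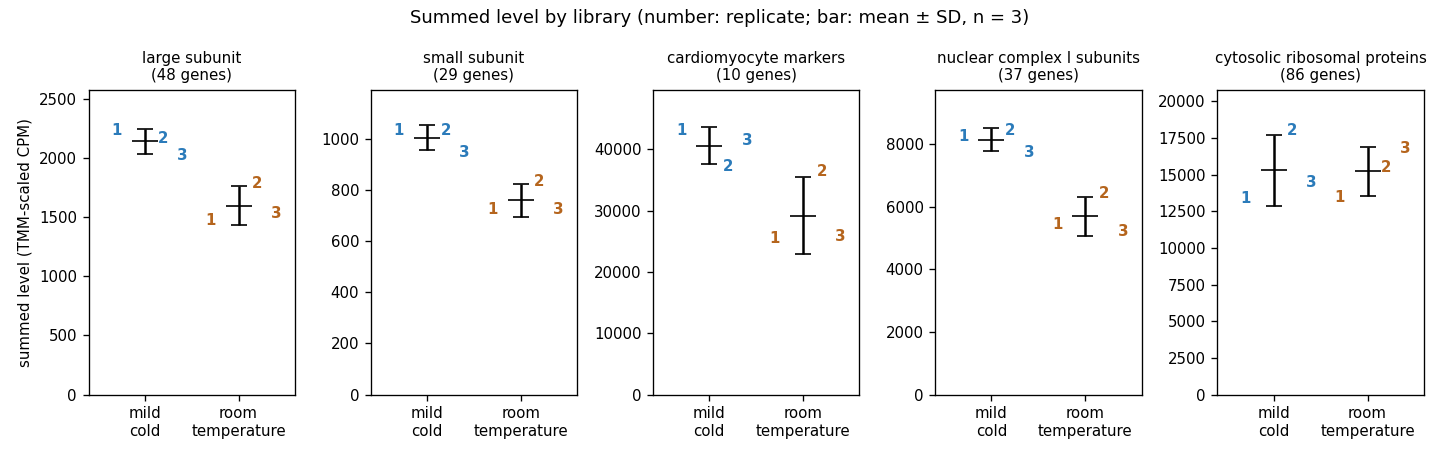
Summed TMM-scaled CPM of 5 gene sets in each library (numbers are replicates, black bars mean ± SD, n = 3), with mild cold left of room temperature. Both subunits and complex I are higher in all mild cold libraries, as are the cardiomyocyte markers with room temperature 2 just under mild cold 2, and the cytosolic ribosomal proteins overlap.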

How the data were processed

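The deposited values are raw gene counts, whole numbers not yet normalized; the authors used featureCounts 2.0.3 and build GRCm39, per the submitters' processing notes. The sources used here do not give the aligner, the strand setting or how read pairs were counted. Of the counts of 1 to 10 in each library, 71.9% to 78.3% were even, a pattern that separate counting of mates leaves, so fragments can be fewer than counts. Symbols, exon lengths and shared exon bases came from GENCODE M21, an earlier build, matched on the ID without its version (55141 of 55401 IDs).

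The main test was that of edgeR 4.0.16 under R 4.3.3 (filterByExpr by group, TMM, quasi-likelihood test without robust estimation, 2-sided, Benjamini-Hochberg over 16757 genes, threshold 0.05). The script was tested on simulated data. Alternatives used DESeq2 1.42.0, limma 3.58.1 (voom), other scalings and filters, a replicate block and libraries left out. CPM are TMM-scaled, with a pseudocount of 1 on the log2 scale. No pair of libraries held the same values.

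The members and lists were chosen with earlier results of these data known. Genes named were a fixed list with known roles, the 6 of each subunit with the smallest p in each direction, the 3 highest and 3 lowest per kilobase in each subunit, and up to 3 of each other list by smallest p. Shared exon bases are given because the strand setting is not known, so how reads on such bases were assigned is not known either.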

Additional observations from a re-analysis of the deposited data

How the results depend on the processing

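No gene passed edgeR's adjusted p of 0.05 in these libraries, and the count of calls depended on the test and the filter. The DESeq2 Wald test called 1414 genes and 42 of the 77, limma-voom 0, an analysis with no expression filter 184 genes and 2 of the 77 (Mrpl14 and Mrps31), library totals only 356 genes, and an adjusted p of 0.1 gave 396 genes and 17 of the 77. With library totals only, all genes had a median of -0.27 on the log2 scale, and the medians of the members were 0.16 for both subunits together, 0.16 for the large and 0.16 for the small subunit, 16 genes had an unadjusted p under 0.05 and 30 did not overlap; relative to the median of all genes the members stood at 0.44, against 0.43 with TMM. There 65 members were higher and 12 lower, with 11 changing sign. Of those named by rule these were Mrpl17 (-0.038), Mrpl33 (-0.14), Mrps10 (-0.17), Mrps18b (-0.00072), Mrps18c (-0.049) and Mrps27 (-0.026), and the others were Mrpl20 (-0.017), Mrpl24 (-0.13), Mrpl27 (-0.091), Mrpl54 (-0.021) and Mrps17 (-0.047). The sign also changed for Mrpl33 (-0.0086) and Mrps10 (-0.036) without mild cold 2 and Mrps6 (0.25) without room temperature 1, while Mrps6 was at -0.39 without room temperature 3. Cytosolic ribosomal proteins, with library totals only, were 5 higher and 81 lower, at 0.02 relative to all genes. Mitochondrially encoded genes held 34.4%, 41.04% and 34.5% of the counts in mild cold 1 to 3, against 26.22%, 31.62% and 27.3% in room temperature 1 to 3. The TMM factors were 0.9429, 0.8646 and 0.9416 in mild cold, against 1.136, 0.9961 and 1.151 at room temperature. The cause of the difference between the scalings was not tested.

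Without the 2 deepest libraries, 33 members had an unadjusted p under 0.05 and the small subunit median was 0.32. With all libraries, 39 members had an unadjusted p under 0.01. Among the 45 members that share no exon bases 39 had p under 0.05 and 39 did not overlap, against 9.11% and 12% of all genes. Leaving out each library in turn gave 0 to 2 genes called (2 without room temperature 1), 0 members called, 50 to 66 at an unadjusted p under 0.05, 63 to 74 without overlap, medians of 0.35 to 0.52 for both subunits together, 0.34 to 0.52 for the large and 0.35 to 0.49 for the small subunit, and a large minus small difference of -0.0063 to 0.039. Of these counts, 50 and 63 came without room temperature 3, against 6.2% and 15.8% of all genes. The 66 and 74 came without room temperature 2, against 11.1% and 19.9% of all genes. The replicate block gave 1 gene called, 58 members at an unadjusted p under 0.05 and a median of 0.42. No share over all genes is given here for the fit without the 2 deepest libraries, for p under 0.01 or for the replicate block. Same-numbered libraries correlated at 0.0958, -0.179 and -0.099 in their deviations across genes, and differently numbered ones at -0.374 to 0.39. So few pairs cannot show whether the numbers pair the libraries. Of 629 comparisons of 37 named members with 17 settings, 9 changed sign. Another 597 kept direction without passing the threshold, and 23 kept direction and passed it. No named member passed the threshold in the main fit, so losing it was not possible, and the 597 show kept direction only.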

Other observations

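Processed pseudogenes named after these genes, which the count table lists in 5 rows, held few counts. The highest was Mrpl23-ps1 with at most 34 counts in a library, followed by Mrps36-ps1 with 18, Mrpl48-ps with 12, Mrps36-ps2 with 10 and Mrps36-ps3 with 0.

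Across the 77 genes, the log2 fold change had a Pearson's r of 0.29 and a Spearman's rho of 0.31 with log2 CPM per kilobase, and -0.09 and -0.08 with log2 exon length. The genes share their libraries, so these values only describe the set.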
